A study of Mus musculus with 12 samples.

Results

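The genes described here are 34 interferon-stimulated genes of the mouse, listed by name as known targets of interferon, with earlier results of these data known, out of the 27179 genes in the deposited count table. All 34 had a row in the table, and 32 had enough counts to be tested. Oas3 and Mx1 were the exceptions. Gene expression was measured by RNA sequencing of whole frozen hearts from 12 mice, taken at 15 weeks of age, with 3 hearts in each of 4 groups. Diesel TAC hearts came from mice exposed in utero to diesel exhaust (DE) from E0.5 to E17.5 of gestation, with transverse aortic constriction (TAC) at 12 weeks. This operation narrows the aorta, here against a 27 gauge needle, and puts a pressure load on the left ventricle. Diesel sham hearts had the same exposure and a sham operation. Air TAC and air sham hearts came from mice whose mothers breathed filtered air (FA) over the same days, with TAC or a sham operation. Offspring of both exposures were raised in filtered air until the echocardiography at 11 weeks. No source used here states strain, sex, litter or sequencing run. Hearts of 1 exposure group may share a litter, and p-values measure only the spread between these hearts.

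Interferons are secreted proteins made when a cell senses foreign or misplaced nucleic acid, or by activated lymphocytes. They bind receptors on neighbouring cells, the kinases Jak1 and Tyk2 phosphorylate Stat2, and Stat2 with Irf9 carries the signal to promoters that hold an interferon-stimulated response element. The target genes encode antiviral proteins, nucleic acid sensors and the factors that renew the response. In heart tissue these genes are expressed by macrophages and endothelium and also by cardiomyocytes and fibroblasts, and a whole-heart measurement pools all of them.

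Libraries held 5534685 to 13265816 counts. Levels are given as CPM, counts divided by library size after TMM scaling, and 3 counts corresponded to 0.218 to 0.501 CPM. The hearts matched their labelled surgery, since the summed CPM of the load-responsive genes Nppa, Nppb, Myh7 and Acta1 was 5518 to 8661 in TAC hearts and 1047 to 1668 in sham hearts. Cardiomyocyte markers dominated every library, with summed levels of 85160 to 136400 CPM in TAC hearts and 113600 to 155200 CPM in sham hearts. One library stood apart. Diesel sham heart 2 had the fewest counts and the lowest mitochondrial share, 18.3% of its counts against up to 32.4% elsewhere. The calls after diesel exhaust, the call of Irf7 and the medians that moved most are also given without this heart. Other values of single genes are given with it.

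After TAC, most of the interferon-stimulated genes lay slightly higher than after sham surgery, and 4 of them passed the test when both exposures were averaged. These were Rsad2, Ifi27l2a, Gbp3 and Irf7, each 1.76-fold to 1.88-fold higher in TAC hearts. None was lower. The 4 calls are 12.5% of the 32 tested genes, and 4.10% of all 13626 genes tested were called higher in the same comparison. Of the 32 genes, 28 (87.5%) had a log2 fold change above 0, against 50.6% of all genes tested, and the median log2 fold change was 0.34, against 0.004 for all genes tested. Since the genes were listed with results known, these shares describe them and are no independent evidence of a direction. Tests are edgeR's quasi-likelihood test over all genes with Benjamini-Hochberg adjustment, and a gene is called at an adjusted p under 0.05. Errors of fold changes are standard errors (SE).

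Rsad2 encodes viperin, an enzyme that makes a chain-terminating nucleotide used against viral polymerases. It lies on chromosome 12 at 26442743 to 26456452, minus strand, in the mouse build mm10. Its level was 20.6, 17.9 and 11.5 CPM in diesel TAC hearts, against 6.77, 8.36 and 9.67 CPM in diesel sham hearts. In air TAC hearts it was 16.0, 16.4 and 24.6 CPM, against 9.63, 12.0 and 11.0 CPM in air sham hearts. Within each exposure, every TAC heart was above every sham heart, and only the lowest TAC heart, diesel TAC heart 3, fell below the highest sham heart. Averaged over exposures, Rsad2 rose by a log2 fold change of 0.91 ± 0.19 (SE; edgeR adjusted p = 0.00415). This call held with each of the 12 hearts left out in turn.

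Ifi27l2a encodes a small membrane protein induced by type I interferon, from chromosome 12 at 103433873 to 103443680, minus strand. It measured 22.2, 17.1 and 14.7 CPM in diesel TAC hearts, against 8.04, 7.52 and 7.07 CPM in diesel sham hearts. Air TAC hearts had 9.05, 22.4 and 13.6 CPM, against 12.7, 8.96 and 13.1 CPM in air sham hearts. The diesel groups did not overlap, while the air groups did, since air TAC heart 1 was below 2 of the 3 air sham hearts. The average rise was 0.81 ± 0.21 on the log2 scale (SE; edgeR adjusted p = 0.0183). The call was lost without air TAC heart 2, without air sham heart 2 and without diesel TAC heart 1, with adjusted p of 0.0932, 0.0505 and 0.0562.

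Gbp3, on chromosome 3 at 142560016 to 142573213, plus strand, encodes a guanylate-binding GTPase that acts against intracellular pathogens. Diesel TAC hearts had 7.76, 7.25 and 7.26 CPM, against 3.83, 4.01 and 3.32 CPM in diesel sham hearts. Values in air TAC hearts were 8.34, 7.64 and 8.60 CPM, against 5.29, 4.99 and 5.52 CPM in air sham hearts. All 6 TAC hearts were above all 6 sham hearts, which no other of the 32 genes showed and which held for 2.19% of all genes tested. Gbp3 also had the lowest observed SD between hearts of a group among the 32 genes, 0.091 on the log2 scale. With 23 to 107 counts per heart, Gbp3 had a fitted biological coefficient of variation of 0.225, above the 0.187 of Parp14. It rose by 0.82 ± 0.21 (log2, SE; edgeR adjusted p = 0.0184), and the call held with each heart left out.

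Irf7, on chromosome 7 at 141263183 to 141266499, minus strand, encodes the transcription factor that amplifies the type I interferon response. It measured 8.27, 9.93 and 9.15 CPM in diesel TAC hearts, against 8.30, 2.84 and 3.17 CPM in diesel sham hearts. In air TAC hearts it was 8.10, 11.0 and 9.20 CPM, against 2.96, 7.05 and 5.68 CPM in air sham hearts. TAC hearts were alike, while sham hearts spread widely, and diesel sham heart 1 lay among the TAC hearts. The average rise of 0.89 ± 0.27 (log2, SE) had an edgeR adjusted p of 0.0466, and the call remained in only 3 of the 12 fits that left out a heart, with adjusted p up to 0.128. Without diesel sham heart 2 the log2 fold change was 0.76 (edgeR adjusted p = 0.0963). Phrf1 on the opposite strand overlaps 45 exonic bases of Irf7, and no source used here states whether counting used strand.

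**Figure D1:**
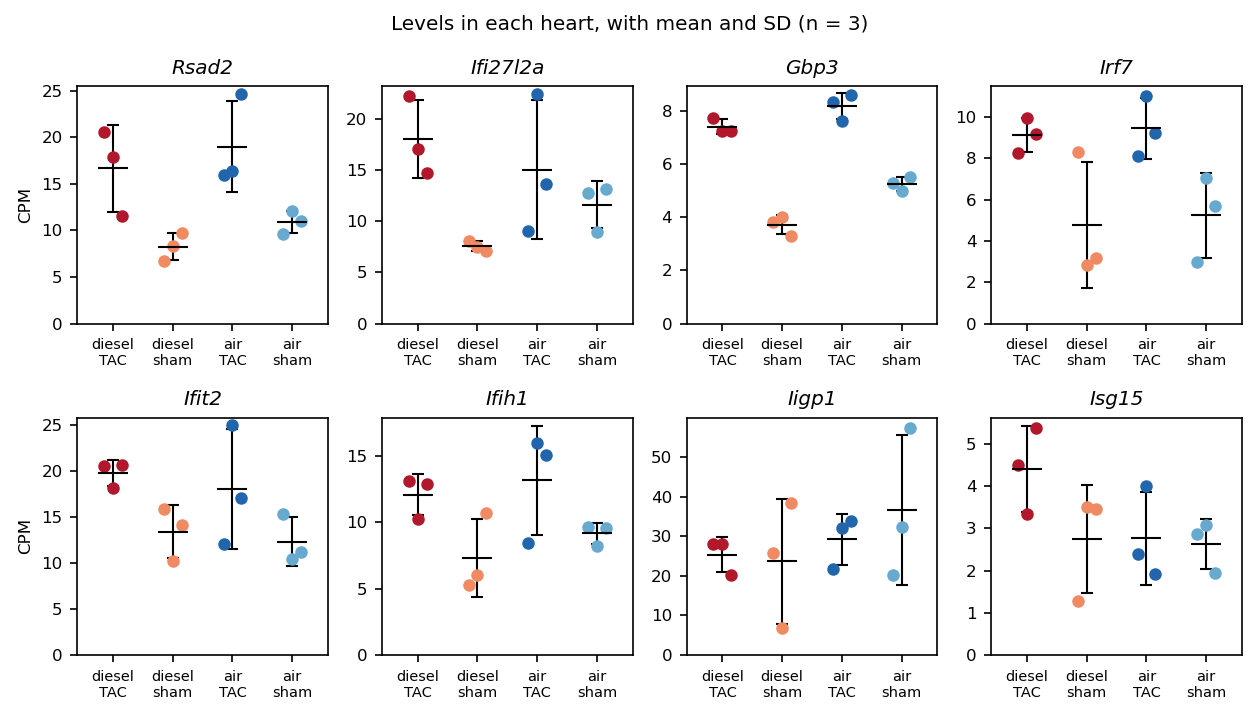
Level in CPM (y axis, from 0) of 8 interferon-stimulated genes in each heart, with points for hearts and bars for the group mean and SD (n = 3), in diesel TAC, diesel sham, air TAC and air sham hearts. The upper row shows the called genes: all 6 TAC hearts lie above all 6 sham hearts for Gbp3, and 1 diesel sham heart reaches the TAC level of Irf7.

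The promoter of Rsad2 shows the kind of site through which these genes are known to be induced. The 250 bases before its RefSeq start (GRCm38.p6, chr12:26456453-26456702, minus strand) are printed 5′ to 3′, with the letters that match the response element core in capitals.
Rsad2: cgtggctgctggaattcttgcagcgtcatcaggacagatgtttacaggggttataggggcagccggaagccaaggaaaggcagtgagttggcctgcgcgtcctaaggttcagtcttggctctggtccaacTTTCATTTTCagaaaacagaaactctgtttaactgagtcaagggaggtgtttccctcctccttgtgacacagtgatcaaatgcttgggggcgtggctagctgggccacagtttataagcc
The core searched was TTTC, any 2 bases and TTTC again, on both strands, over 250 bases before and 50 after the start. Of the 34 genes, 24 had an entry in the RefSeq promoter table, and 16 of these 24 (66.7%) held the core, against 3.99% of 27025 genes with a promoter in the table. The second motif, TTCNNNGAA, is known as the gamma-activated site. It was present in 7 of the 24 (29.2%), against 9.55% of all genes, and a site of one motif may overlap a site of the other. Shorter windows of the called gene Gbp3 are set beside those of Isg15 and Ifit1, which were not called, with the matched letters in capitals.
Gbp3, chr3:142559989-142560018, plus strand: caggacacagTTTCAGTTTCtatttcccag
Isg15, chr4:156200871-156200900, minus strand: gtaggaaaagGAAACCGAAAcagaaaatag
Ifit1, chr19:34640794-34640823, plus strand: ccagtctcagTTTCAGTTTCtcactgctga
The same 10 letters were found in Gbp3 and Ifit1, and Isg15 carried the core on the other strand. In Gbp3 2 matches overlapped, and in Isg15 3 did. The called gene Irf7 had no match in its window, and Ifi27l2a had no entry. A match of letters describes the window and is not a measured binding site.

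In hearts exposed to diesel exhaust, TAC against sham called 2 of the 32 genes higher, or 6.25%, and none lower, while 1.75% of all genes tested were called higher. Ifi27l2a was 2.39-fold higher in diesel TAC hearts, with a log2 fold change of 1.25 ± 0.30 (SE; edgeR adjusted p = 0.0213). Rsad2 was 2.02-fold higher, at 1.02 ± 0.27 (SE; edgeR adjusted p = 0.0419). Both calls depended on single hearts, while the fold changes moved less. Rsad2 was lost without 7 of the 12 hearts, with adjusted p up to 0.183, and its log2 fold change ran from 0.83 to 1.22 over the 12 fits. Ifi27l2a was lost without 5, with adjusted p up to 0.109, and its log2 fold change ran from 1.07 to 1.38. Without diesel sham heart 2 neither was called, at log2 fold changes of 1.03 for Rsad2 and 1.25 for Ifi27l2a. In 6 genes every diesel TAC heart was above every diesel sham heart, namely Rsad2, Ifi27l2a, Gbp3, Ifit1, Ifit2 and Oasl2, and 11.1% of all genes tested showed this.

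In hearts exposed to filtered air, TAC against sham called 0 of the 32 genes by edgeR, while 0.609% of all genes tested were called higher. DESeq2 also called 0. By edgeR 6 of the 32 genes, all higher, had an unadjusted p under 0.05. In that direction 811 of all 13626 genes tested did. In 7 genes every air TAC heart was above every air sham heart, namely Dhx58, Rsad2, Irf9, Mx2, Gbp3, Ddx58 and Irf7, against 8.20% of all genes tested. The median log2 fold change of the 32 genes was 0.33 after air, against 0.005 for all genes tested, and 0.40 after diesel exhaust, against 0.001. The average over exposures uses the same hearts as these 2 comparisons, so it is no separate evidence.

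**Figure D2:**
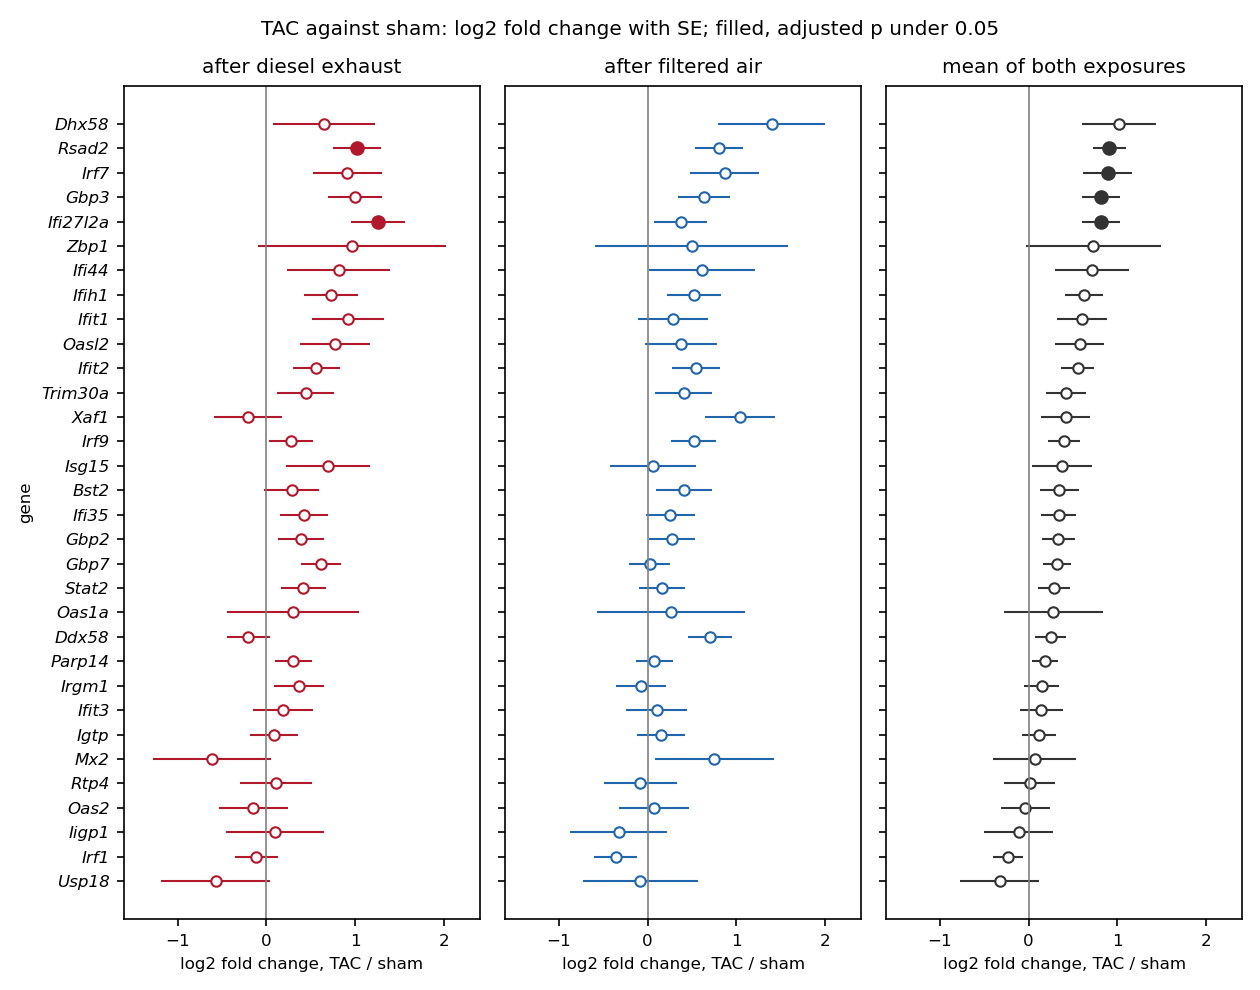
Log2 fold change of TAC over sham hearts (x axis) with its SE for the 32 tested genes (y axis, ordered by the average), after diesel exhaust, after filtered air and averaged over exposures. Filled points passed an adjusted p under 0.05: 2 genes after diesel exhaust, 0 after filtered air and 4 in the average.

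Among the antiviral effectors that act on RNA or ribosomes, 1 of 8 tested genes, Rsad2, was called in the average, and the median log2 fold change was 0.56. Ifit1, Ifit2 and Ifit3 bind viral RNA or the translation machinery. Ifit2, which had the highest CPM of this group, measured 20.6, 18.2 and 20.7 CPM in diesel TAC hearts, against 15.8, 10.2 and 14.1 CPM in diesel sham hearts. Among air TAC hearts the levels were 12.0, 25.1 and 17.1 CPM, against 15.4, 10.4 and 11.2 CPM in air sham hearts. The diesel groups were apart and the air groups overlapped, and the average log2 fold change of 0.55 ± 0.19 (SE) was not called (edgeR adjusted p = 0.0771). Ifit3 differed from its chromosome 19 neighbour Ifit2 in diesel sham heart 2, where Ifit3 was at 17.9 CPM, its highest of the 12 hearts, and Ifit2 at 10.2 CPM, its lowest. Of the exonic words of 100 bases in Ifit3, 31.7% also occur in Ifit3b, so reads of this pair may not be told apart.

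The oligoadenylate synthetases activate RNase L when they meet double-stranded RNA. Oas2 had a log2 fold change of -0.04 in the average. Oas1a ranged from 0.497 CPM in diesel TAC heart 3 to 4.79 CPM in diesel TAC heart 1, so that both extremes of the 12 hearts fell in 1 group. It shares 40.9% of its words with Oas1g. Oas3 stayed between 0 and 0.811 CPM, at or near the level of 3 counts, and was at 0 in 2 hearts. Zbp1, a sensor of Z-form nucleic acid that can start cell death, had the widest spread of the 32 genes, with an SD within groups of 1.27 on the log2 scale. It ran from 0 counts in air sham heart 1 to 2.51 CPM in air TAC heart 2.

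The antiviral GTPases and membrane effectors had 1 call among 3 tested genes, Ifi27l2a. Bst2, or tetherin, which holds budding virus at the cell surface, had a log2 fold change of 0.35 in the average. Mx1 and Mx2, dynamin-like GTPases, are annotated as transcribed pseudogenes in the RefSeq table of this build. Mx1 was at 0 in 2 hearts and reached 1.49 CPM in diesel TAC heart 3. Mx2 measured 1.16, 1.90 and 1.09 CPM in diesel TAC hearts, against 0.511, 4.35 and 1.59 CPM in diesel sham hearts, with its highest and lowest values of all 12 hearts in the diesel sham group.

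Of the 6 interferon-inducible GTPases of the GBP and IRG families, 1 was called in the average, Gbp3. Iigp1, an IRG GTPase that attacks the vacuoles of intracellular parasites, had the highest CPM of this group. It measured 27.9, 28.0 and 20.2 CPM in diesel TAC hearts, against 25.7, 6.85 and 38.4 CPM in diesel sham hearts. In air TAC hearts the levels were 21.8, 32.0 and 33.8 CPM, against 20.3, 32.3 and 57.4 CPM in air sham hearts. Both the lowest and the highest of the 12 hearts were sham hearts, and the average log2 fold change was -0.11 ± 0.39 (SE). Gbp7, beside Gbp3 on chromosome 3, had a log2 fold change of 0.61 after diesel exhaust with an unadjusted p of 0.0144 (edgeR adjusted p = 0.169), and 0.32 in the average.

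Isg15, the ubiquitin-like protein that is conjugated to other proteins after interferon, was not called in any comparison. It measured 4.50, 3.35 and 5.37 CPM in diesel TAC hearts, against 1.28, 3.51 and 3.46 CPM in diesel sham hearts. After filtered air, TAC hearts had 2.38, 4.01 and 1.91 CPM, against 2.86, 3.08 and 1.95 CPM in air sham hearts. The groups overlapped in both exposures. Usp18, the protease that removes Isg15 and dampens the receptor, had the lowest average log2 fold change of the 32 genes, -0.33, and was not called.

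None of the 3 RNA sensors was called in the average by edgeR or DESeq2. By edgeR 2 were higher at an unadjusted p under 0.05, as were 1485 of all 13626 genes tested. The median log2 fold change of the 3 sensors in the average, 0.62, was the highest of the 7 role groups. Ifih1 encodes the sensor MDA5. It measured 13.1, 10.3 and 12.8 CPM in diesel TAC hearts, against 5.23, 6.02 and 10.7 CPM in diesel sham hearts. For air TAC hearts the values were 8.46, 15.9 and 15.1 CPM, against 9.63, 8.22 and 9.57 CPM in air sham hearts. One TAC heart in each exposure fell within the sham range, and the average of 0.62 ± 0.22 (log2, SE) had an edgeR adjusted p of 0.0815. Dhx58, the regulator LGP2, had the highest average log2 fold change of the 32 genes, 1.02 ± 0.42 (SE), with an edgeR adjusted p of 0.149.

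Ddx58, the sensor RIG-I, had the highest CPM of the sensors, and its values after TAC differed in sign between exposures. Diesel TAC hearts had 10.2, 12.6 and 12.7 CPM, against 12.4, 15.2 and 13.27 CPM in diesel sham hearts. The air TAC hearts had 12.2, 15.7 and 16.1 CPM, against 7.20, 10.1 and 9.73 CPM in air sham hearts. The log2 fold change was -0.20 after diesel exhaust and 0.71 after air, and the air groups did not overlap. The test of the difference itself gave an unadjusted p of 0.0160 and an edgeR adjusted p of 1.00.

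Of the 4 transcription factors, Irf7 was called. Stat2 and Irf9, which take part in the factor that binds the response element, had average log2 fold changes of 0.29 and 0.40 and were not called. Irf9 shares 123 exonic bases with Rnf31 on the same strand. Irf1, the early interferon gamma target, had the highest CPM of the factors. It measured 19.1, 19.4 and 12.1 CPM in diesel TAC hearts, against 16.2, 19.9 and 18.8 CPM in diesel sham hearts. Air TAC hearts had 14.1, 15.9 and 13.4 CPM, against 20.5, 13.7 and 21.3 CPM in air sham hearts. The groups overlapped, and the average log2 fold change was -0.24.

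None of the 6 other genes was called in the average by edgeR or DESeq2, and 0 had an unadjusted edgeR p under 0.05. Parp14, an ADP-ribosyltransferase, measured 41.7, 33.7 and 36.6 CPM in diesel TAC hearts, against 26.3, 27.2 and 37.4 CPM in diesel sham hearts. Values in air TAC hearts were 30.3, 38.4 and 32.3 CPM, against 24.0, 32.5 and 39.6 CPM in air sham hearts, and the groups overlapped in both exposures. Xaf1, a partner of the apoptosis inhibitor XIAP, measured 3.63, 4.02 and 5.47 CPM in diesel TAC hearts, against 4.34, 5.01 and 5.77 CPM in diesel sham hearts. Among air TAC hearts the levels were 8.46, 7.14 and 3.94 CPM, against 2.22, 4.26 and 3.08 CPM in air sham hearts. Like Ddx58, it differed in sign between exposures, with an unadjusted p for the difference of 0.0335 and an edgeR adjusted p of 1.00. Ifi35, Ifi44, Rtp4 and Trim30a had average log2 fold changes of 0.34, 0.71, 0.01 and 0.42.

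Levels between genes were compared per kilobase of exon. Ifi27l2a stood highest at 28.2 CPM per kilobase, followed by Bst2 at 12.6 and Ifi35 at 6.80. Mx1 at 0.114 and Oas3 at 0.0493 CPM per kilobase were lowest.

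Prenatal exposure moved no interferon-stimulated gene past the threshold. Among sham hearts, edgeR called 0 of 32 genes between diesel exhaust and filtered air, as it did for all genes tested (0% called), and DESeq2 called 0 of the 32. The median log2 fold change was -0.01, and 1 gene, Ddx58, had an unadjusted p under 0.05 (0.60 ± 0.25, SE; edgeR adjusted p = 0.996). Of all 13626 genes tested, 261 were higher at an unadjusted p under 0.05 and 242 lower. Ddx58 and Xaf1 were higher in every diesel sham heart than in every air sham heart, and Gbp3 and Ifi27l2a were lower in every one. These patterns held for 4.00% and 3.60% of all genes tested. For Gbp3 the values were 3.83, 4.01 and 3.32 CPM in diesel sham hearts and 5.29, 4.99 and 5.52 CPM in air sham hearts, and its log2 fold change was not called.

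Among TAC hearts, edgeR and DESeq2 again called 0 of 32 genes between exposures (0% of all genes by edgeR), and 0 had an unadjusted p under 0.05. No gene was higher in every diesel TAC heart than in every air TAC heart, and 1, Dhx58, was lower in every one, against 3.96% and 3.76% of all genes tested. The median log2 fold change was 0.10. Averaged over surgeries, both tools called 0 of 32 (0% of all genes by edgeR), 0 had an unadjusted p under 0.05, and the median was 0.04. The interaction, which asks whether the TAC response differed between exposures, also had 0 calls by both tools (0% of all genes by edgeR). Among all 13626 genes tested, 179 had an unadjusted p under 0.05 with a higher response after diesel exhaust and 148 with a lower one. Of the 32 genes, 3 had an unadjusted p under 0.05. These were Ddx58 and Xaf1, with a smaller response after diesel exhaust, and Ifi27l2a, with a larger one (0.88 ± 0.42, log2, SE; unadjusted p = 0.0468, edgeR adjusted p = 1.00). The call of Ifi27l2a and Rsad2 after diesel exhaust and not after air therefore does not show that their response differed between exposures.

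**Figure D3:**
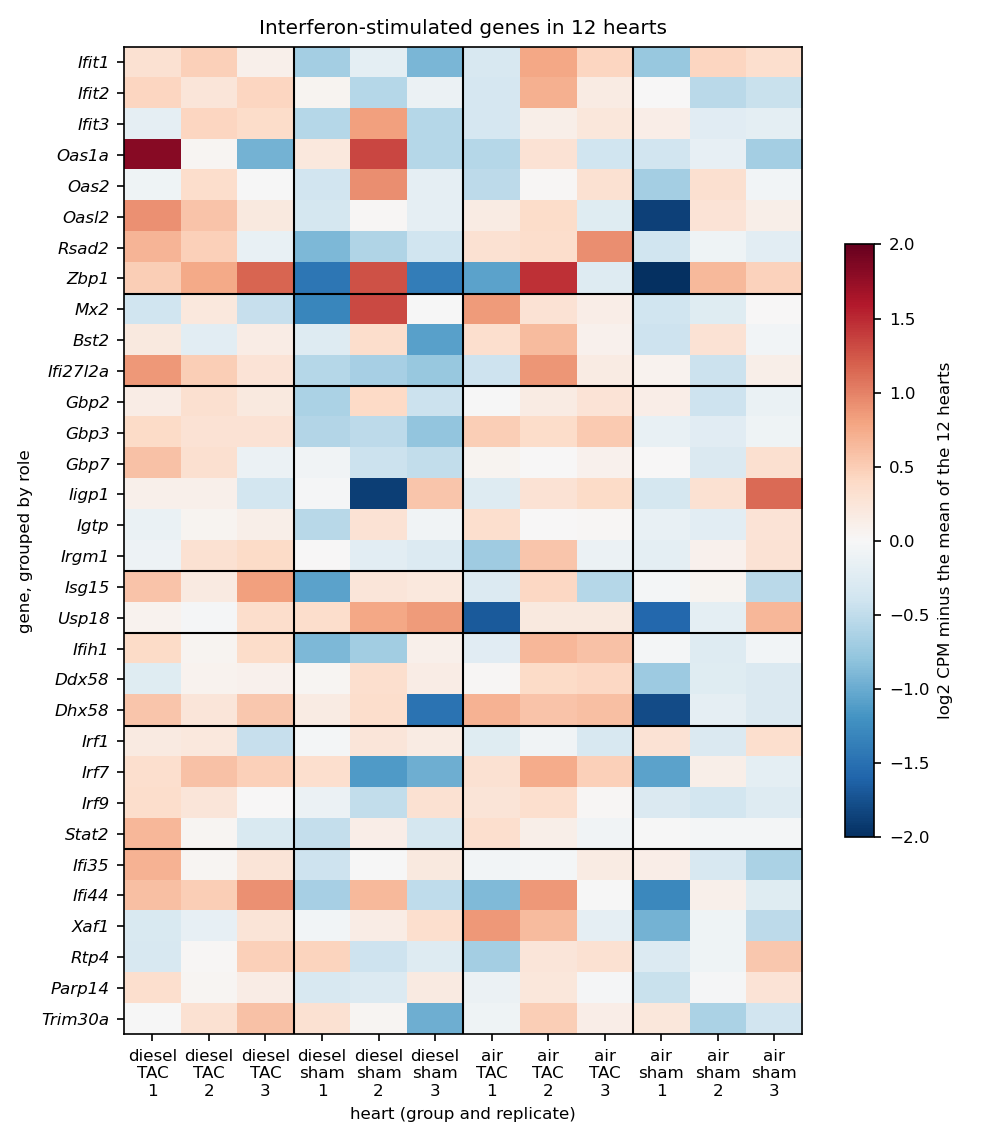
Log2 CPM of the 32 tested genes (y axis, grouped by role with lines between groups) in the 12 hearts (x axis), each gene as its difference from its mean over the hearts. Red is above and blue below that mean, and the strongest colours fall in single hearts, such as Zbp1 in air sham heart 1 and Oas1a in diesel TAC heart 1.

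Hearts of 1 group differed from each other in these genes. The median difference of the 32 genes from their mean over the 12 hearts was 0.34, 0.24 and 0.23 (log2) in diesel TAC hearts, against -0.33, 0.08 and -0.27 in diesel sham hearts. In air TAC hearts it was -0.10, 0.36 and 0.15, against -0.32, -0.18 and -0.06 in air sham hearts. Diesel TAC hearts were uniformly high, while diesel sham heart 2 and air TAC heart 1 went against the rest of their groups. Diesel sham heart 2 had the highest value of its group in 17 of the 32 genes (53.1%), against 37.4% of all genes tested. Air TAC heart 1 had the lowest of its group in 20 genes (62.5%), against 39.1% of all genes tested.

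The deviation of diesel sham heart 2 was not uniform. It held the highest of all 12 values for Ifit3, Oas2, Mx2 and Gbp2 and the lowest for Ifit2, Iigp1, Irf7 and Irf9. Without this heart, the median log2 fold change of TAC against sham after diesel exhaust was 0.58 rather than 0.40. Air TAC heart 2 held the highest of all 12 values for 8 genes and diesel TAC heart 1 for 7. Air sham heart 1 held the lowest for 8, and diesel sham hearts 1 and 3 for 7 each. The median SD within groups was 0.42 on the log2 scale for the 32 genes and 0.40 for the 9986 genes within the same range of levels.

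Markers of macrophages and monocytes were also mostly higher after TAC. Their summed level was 531, 490 and 519 CPM in diesel TAC hearts, against 283, 515 and 293 CPM in diesel sham hearts. It was 399, 592 and 418 CPM in air TAC hearts, against 257, 367 and 350 CPM in air sham hearts. Air sham heart 3 was below air sham heart 2 in this sum, but above it in the median of the 32 genes (-0.06 against -0.18). All 20 markers were detected in every heart, and 5 of 20 (25.0%) were called higher in TAC hearts in the average and none lower, against the 4.10% of all genes called higher. Of the 20 markers, 18 (90.0%) had a log2 fold change above 0, and their median of 0.58 was larger than the 0.34 of the interferon-stimulated genes. Diesel sham heart 2, the highest of its group in most of the interferon-stimulated genes, was also the highest of its group in these markers. Air TAC heart 2 was the highest of all 12. Both hearts were also the highest of their groups in summed markers of fibroblasts (1063 and 2972 CPM), endothelium (1356 and 1587 CPM) and neutrophils (4.51 and 5.39 CPM). In lymphocyte markers only diesel sham heart 2 was the highest of its group. In cardiomyocyte markers both were the lowest of their groups (113600 and 85160 CPM).

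Fibroblast markers summed to 1570 to 3227 CPM in TAC hearts and 834.5 to 1063 CPM in sham hearts. In the average 8 of 11 (72.7%) were called higher, against 4.10% of all genes tested. Endothelial markers summed to 1296 to 1597 CPM in TAC hearts and 1229 to 1356 CPM in sham hearts. In the average edgeR called 0 of 15, and 2 were higher at an unadjusted p under 0.05, as were 1485 of all 13626 genes tested. Of these 15, 13 (86.7%) had a log2 fold change above 0 in the average, with a median of 0.16. Of the 11 cardiomyocyte markers, 4 were called lower in TAC hearts in the average, and 0 had a log2 fold change above 0. For all 13626 genes tested, 533 were called lower and 50.6% had a log2 fold change above 0. Lymphocyte markers were near 0, with sums of 2.68 to 6.89 CPM in TAC hearts and 2.30 to 3.08 CPM in sham hearts, and none of the 19 passed the count filter. Neutrophil markers summed to 2.50 to 5.39 CPM in TAC hearts and 1.14 to 4.51 CPM in sham hearts. The part of these cell types in the results on interferon-stimulated genes was not tested, and in whole hearts more cells of a type and more RNA per cell cannot be told apart.

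**Figure D4:**
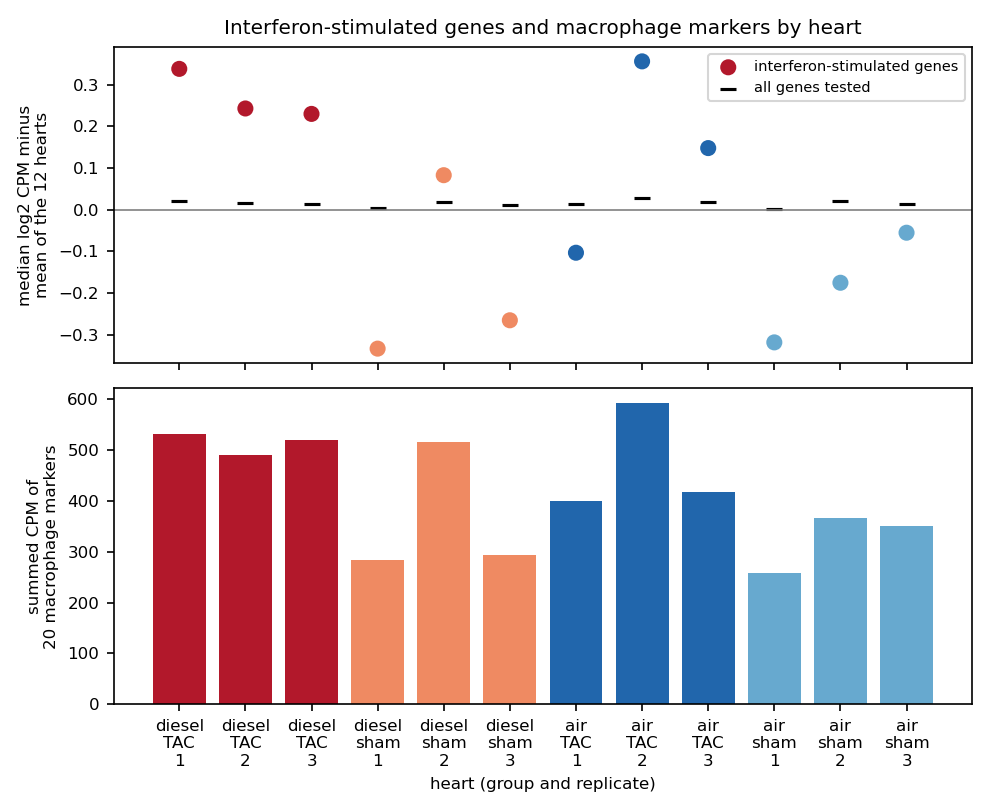
Upper plot: median over the 32 genes of log2 CPM minus the mean of the 12 hearts (points), with the same for all genes tested (dashes), by heart. Lower plot: summed CPM of 20 macrophage and monocyte markers in the same hearts. Diesel sham heart 2 is the highest of its group in both, and air TAC heart 2 is the highest of the 12 hearts in both.

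The rest of the pathway was described by a list of 148 further genes, of which 121 were tested. In the average over exposures 6 of the 121 (4.96%) were called higher and none lower, close to the 4.10% of all genes. After diesel exhaust it was 2 (1.65%), Slfn2 and B2m, against 1.75% of all genes, and after air it was 0 by edgeR. After air, 9 of the 121 genes had an unadjusted edgeR p under 0.05, all higher, and 811 of all 13626 genes tested did in that direction. The median log2 fold change of the 121 genes in the average was 0.25, with 77.7% above 0.

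The interferons themselves were barely detected. Of 21 ligand genes, 17 had no count in any heart and the others held 14 counts in all. Ifnb1 was at 0 in all 12 hearts, and Ifng had 2 counts, both in air TAC heart 1. At this depth a ligand could be present in any heart below 0.218 to 0.501 CPM.

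The receptor subunit Ifnar1 was called higher after TAC. It measured 29.6, 32.7 and 36.4 CPM in diesel TAC hearts, against 21.8, 24.2 and 25.4 CPM in diesel sham hearts. In air TAC hearts the levels were 32.0, 32.1 and 28.7 CPM, against 21.1, 20.6 and 25.5 CPM in air sham hearts. The 6 TAC hearts were above the 6 sham hearts, an order that 2.19% of all genes tested showed. The average log2 fold change was 0.47 ± 0.13 (SE; edgeR adjusted p = 0.0276). The other subunits and kinases were not called. Of the 14 tested receptor and signalling genes, 3 had an unadjusted p under 0.05 with a higher level after TAC and 3 with a lower one in the average. For all 13626 genes tested these counts were 1485 and 1461. Ifnar2 averaged 21.96 ± 5.18 CPM in TAC hearts and 20.2 ± 7.10 CPM in sham hearts (SD, n = 6 each). Ifngr1 averaged 62.2 ± 10.02 CPM in TAC hearts and 45.9 ± 16.7 CPM in sham hearts, and Ifngr2 150.4 ± 16.0 CPM in TAC hearts and 157.3 ± 11.6 CPM in sham hearts.

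Jak1 averaged 135.0 ± 10.6 CPM in TAC hearts and 158.0 ± 10.6 CPM in sham hearts. Its 6 TAC hearts, at most 146.6 CPM, were below its 6 sham hearts, at least 147.0 CPM, an order that 290 of the 13626 genes tested showed. The log2 fold change was -0.23 (unadjusted p = 0.0480, edgeR adjusted p = 0.226). Tyk2 averaged 13.99 ± 2.20 CPM in TAC hearts and 14.2 ± 3.73 CPM in sham hearts. Irf3, which starts interferon transcription, averaged 14.3 ± 2.1 CPM in TAC hearts and 14.4 ± 2.2 CPM in sham hearts. Irf8, a factor of myeloid cells, averaged 6.04 ± 1.22 CPM in TAC hearts and 4.16 ± 2.46 CPM in sham hearts and was not called.

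The other called pathway genes were B2m, H2-Q6, Ifitm2, Slfn2 and Tlr8. B2m, the light chain of class I molecules, averaged 136.3 ± 25.3 CPM in TAC hearts and 87.7 ± 23.4 CPM in sham hearts (SD, n = 6 each; log2 fold change 0.66, edgeR adjusted p = 0.00640). H2-Q6, a class I heavy chain with close relatives, had a log2 fold change of 0.88 ± 0.27 (SE; edgeR adjusted p = 0.0495). Ifitm2, which blocks viral entry, rose by 0.44 ± 0.14 (adjusted p = 0.0495 by edgeR). Slfn2, a regulator of immune cell quiescence, rose by 0.76 ± 0.22 (edgeR adjusted p = 0.0314). For Ifitm2 and Slfn2 every TAC heart was above every sham heart, as in 2.19% of all genes tested. For B2m and H2-Q6 the TAC and sham hearts overlapped.

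Tlr8, an endosomal sensor of single-stranded RNA, had the greatest log2 fold change among the called pathway genes, 1.80 ± 0.44 (SE; edgeR adjusted p = 0.0134). It measured 3.19, 2.90 and 1.29 CPM in diesel TAC hearts, against 0.894, 1.17 and 1.59 CPM in diesel sham hearts. After filtered air, TAC hearts had 8.46, 5.14 and 5.62 CPM, against 0.106, 1.91 and 1.30 CPM in air sham hearts, where the lowest value is a single count. The air groups were apart, and diesel TAC heart 3 lay within the diesel sham range.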

How the data were processed

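RNA of frozen hearts was depleted of ribosomal RNA and sequenced on an Ion instrument with 4 samples per run, per the labels' protocols. Per the submitters' processing notes, the tools were cutadapt 1.6, Subread 1.4.2 and featureCounts, with the mouse build mm10. The deposited file holds raw, unnormalized counts by Entrez gene number. No source used here states the counting's strand or multi-mapping settings. Symbols came from RefSeq GRCm38.p6 (25275 genes) and GENCODE M21 (18 more), and 1886 genes without a symbol held 4.19% of counts.

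In R 4.3.3, edgeR 4.0.16 with TMM factors, filterByExpr (count minimum 10) and a robust quasi-likelihood fit of 1 mean per group was run on all 12 libraries (8 residual degrees of freedom), with Benjamini-Hochberg adjustment over 13626 genes in each of 7 comparisons. The common biological coefficient of variation was 0.261. The floor of 3 counts covers counting error only. The fit was tested on simulated data. Alternatives were DESeq2 1.42.0, limma-voom 3.58.1, other scalings, filters and models, and leaving out each heart. One listed pathway gene is not reported here. The members, gene lists and tests were chosen with earlier results of these data known. Values in every heart are given for called genes and, in each role group, for the gene of highest mean CPM and of smallest unadjusted p. Ifit3, Oas1a, Zbp1, Mx2, Gbp7, Dhx58, Usp18 and the details of diesel sham heart 2 were chosen after their values were seen.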

Additional observations from a re-analysis of the deposited data

How the results depend on the processing

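Of 4892 recomputed values (224 gene results under each alternative that gave one), 4855 kept their side of the threshold, 28 lost the call and 9 gained it. Direction was compared only where a fit made a call, and there 0 reversed. Only the 2 calls after diesel exhaust and the 4 in the average could lose a call, and all 28 losses were among them. The 4855 are therefore mostly results that stayed uncalled and say little about the stability of the calls. The count of interferon-stimulated genes called after diesel exhaust was 2, with 0 by limma-voom, 1 from a fit of the compared groups alone, 3 by DESeq2, and 0 to 2 with a heart left out. In the average over exposures it was 4, and 2 to 6 with a heart left out, the lowest without air TAC heart 2 or diesel TAC heart 1. With a heart left out, the median log2 fold change of TAC against sham after diesel exhaust ran from 0.31 to 0.58, that of diesel exhaust against filtered air in sham hearts from -0.19 to 0.11, and that of the interaction from -0.029 to 0.277. The low end of the interaction came without air TAC heart 1, and the 0.58 and -0.19 came without diesel sham heart 2. Irf7 was also lost in the fit that was not robust (adjusted p = 0.0612). Scaling by total counts alone gave a median of all genes of 0.115, rather than 0.004, in the average of TAC against sham. No paired analysis was possible because the labels give the groups no shared replicate numbers. Each group held 3 hearts, which limits the precision of every fold change.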
